A study of Mus musculus with 8 samples.

Results

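Marker-negative cells at 37 °C were the cells of SN4741 cultures at the permissive temperature in which no transcript of 5 genes of the dividing cell, Mki67, Top2a, Ccnb1, Cdk1 and Pclaf, was captured. Membership was read from the count matrices: a cell had to hold at most 15% of its unique molecular identifiers (UMIs, each standing for 1 transcript molecule read) in mitochondrial genes, 200 to 6000 detected genes, at least 8000 UMIs and 0 UMIs of the 5 genes. This rule was met by 644 of the 6442 cells at 37 °C that passed the same depth filter, out of 8995 deposited cells at 37 °C and 19125 in the series. The 5798 cells with at least 1 UMI of these genes are called the remaining cells. Since the absence of the 5 transcripts chose the cells, it is a description and not a result.

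The study profiled SN4741, a mouse neural precursor line of labelled genotype WT that carries a heat-sensitive viral T antigen, in 4 libraries at 37 °C with 10% serum and 4 at 39 °C. The cultures at 39 °C were also moved to 0.5% serum for 48 hours, so temperature and serum cannot be told apart. Every library comes from this 1 line, whose karyotype the study describes as polyploid and unstable, so copy number may vary between cells of 1 culture. The labels do not say whether replicates are separate cultures, and p-values then measure only the spread between these libraries, which may be technical. The deposited libraries held 22988911 to 33652656 UMIs, and the marker-negative cells at 37 °C gave sums of 1500286 to 2363178 UMIs per library, against 22048102 to 25146998 for the remaining cells. No 2 libraries had more than 5 cell barcodes in common.

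A dividing cell copies its DNA in S phase and separates the copies in mitosis, and the genes for both tasks are transcribed in turn. Pclaf binds the replication clamp PCNA in S phase, Top2a untangles the copied DNA, Ccnb1 and Cdk1 form the kinase that starts mitosis, and Mki67 coats mitotic chromosomes. In cells that are not dividing, the DREAM complex and the Rb family hold these genes down through short promoter sites, among them the CHR (cell cycle genes homology region) and E2F sites, while CCAAT boxes, which bind NF-Y, are frequent activating sites of the same promoters. The rule cannot tell a cell in early G1 from one that has left the cycle or from one whose transcripts were not captured.

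The promoters of the rule genes are shown because the genes were used together. The 200 bases before the RefSeq start (GRCm38.p6) were searched on both strands for TTTGAA (CHR), CCAAT, and the E2F forms TTTCCCGC and TTTGGCGC. CHR matches lay in the promoters of Mki67, Top2a and Cdk1, 2 in each, and CCAAT matches in all 5: 3 for Mki67, 5 for Top2a and 2 each for Ccnb1, Cdk1 and Pclaf. Neither E2F form matched in the 5. GENCODE M21 places 3 of the starts further upstream, so that 84 of the 200 bases for Ccnb1, 86 for Pclaf and 26 for Cdk1 lie inside the gene by that annotation, with 1 CCAAT match of Ccnb1, both of Pclaf and 1 CHR match of Cdk1 in them. Among 27025 promoters, 12.8% held a CHR, 29.7% a CCAAT box, 3.80% both and 1.17% an E2F form. The stretches of the 3 promoters with both are at chr7:135716380-135716579 (Mki67), chr11:99024190-99024389 (Top2a) and chr10:69352913-69353112 (Cdk1), all on the minus strand and printed 5′ to 3′, with capitals marking CHR and CCAAT matches on either strand.
Mki67: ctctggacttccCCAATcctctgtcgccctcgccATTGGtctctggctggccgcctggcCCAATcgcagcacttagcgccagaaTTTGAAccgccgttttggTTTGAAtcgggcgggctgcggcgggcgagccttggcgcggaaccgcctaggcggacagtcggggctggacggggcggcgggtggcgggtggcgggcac
Top2a: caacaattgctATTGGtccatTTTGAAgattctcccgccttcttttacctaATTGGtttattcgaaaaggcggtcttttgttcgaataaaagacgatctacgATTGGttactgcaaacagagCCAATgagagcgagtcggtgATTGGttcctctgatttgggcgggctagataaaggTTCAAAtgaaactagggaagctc
Cdk1: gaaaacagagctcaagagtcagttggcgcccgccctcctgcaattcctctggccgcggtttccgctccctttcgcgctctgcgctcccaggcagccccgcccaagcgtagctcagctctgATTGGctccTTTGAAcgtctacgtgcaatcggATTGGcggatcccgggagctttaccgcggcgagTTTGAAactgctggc
A match describes the letters of this window and shows no binding.

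The share of marker-negative cells among cells in the depth filter was 11.5%, 10.8%, 10.1% and 7.78% in 37 °C replicates 1 to 4 (194 of 1684, 157 of 1455, 158 of 1567 and 135 of 1736 cells). The exact (Clopper-Pearson) 95% binomial intervals, which cover counting error only, were 10.0 to 13.1%, 9.24 to 12.5%, 8.64 to 11.7% and 6.56 to 9.14%. Replicate 4 lay lowest, and its interval did not reach the share of any other library. At 39 °C the same rule took 3075 of 5397 cells, with shares of 52.3% to 61.4%.

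The share moved with depth. At 37 °C it fell from 19.5% of cells with 8000 to 10000 UMIs to 2.74% of cells with 20000 UMIs or more. Marker-negative cells held a median of 10200 to 12498 UMIs and 3330 to 3750.5 genes per library, against 12801 to 16988 UMIs and 3819 to 4454 genes in remaining cells, and such a difference is partly set by the choice, because a count of 0 is more frequent at low depth. To compare cells at 1 depth, each cell was thinned to 8000 UMIs. The share of cells without a rule-gene UMI was then 18.1%, 16.8%, 17.4% and 11.3% at 37 °C and 66.3% to 70.2% at 39 °C. After thinning, the share at 37 °C still fell with a cell's original depth, from 21.1% in the band of 8000 to 10000 UMIs to 9.36% at 20000 UMIs or more, and the library ranges of these bands did not overlap (15.6 to 25.7% and 7.83 to 11.5%). At 39 °C it lay between 66.1% and 68.5% in all 5 bands.

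**Figure D1:**
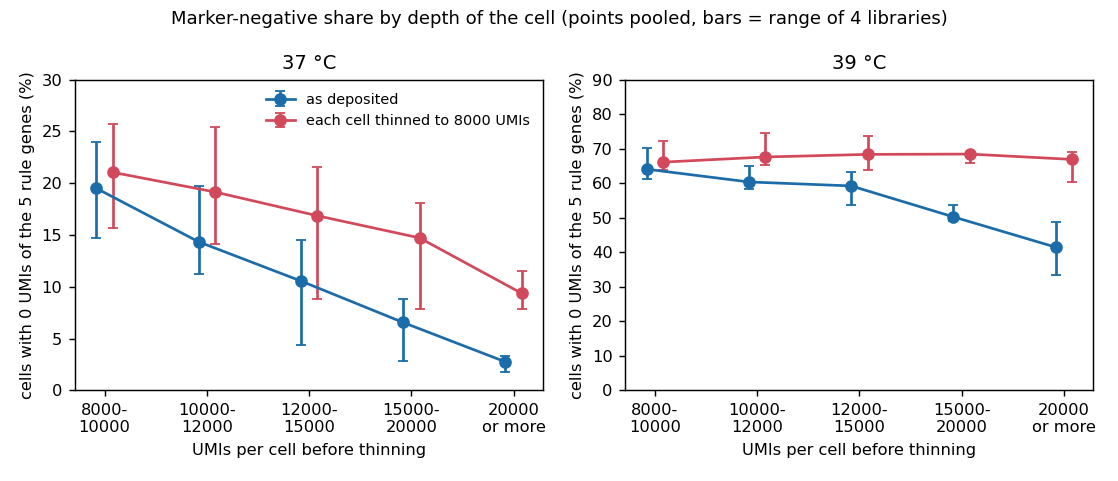
Percentage of cells with 0 UMIs of the 5 rule genes (y) by UMIs per cell before thinning (x), at 37 °C (left, axis to 30%) and 39 °C (right, axis to 90%), with points over pooled cells and bars for the range of the 4 libraries. After thinning to 8000 UMIs the 37 °C share ran from 21.1% to 9.36%, while the 39 °C share stayed between 66.1% and 68.5%.

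In the remaining cells the rule genes were abundant. Top2a (chr11:98992943-99024189, minus strand, GENCODE M21 on GRCm38) had 533 ± 18.9 counts per 1000000 UMIs (CPM; SD, n = 4 libraries), and 69.8 to 76.3% of remaining cells held a UMI of it after thinning. Mki67 (chr7:135689784-135716361, minus strand) had 272 ± 16.5 CPM and Pclaf (chr9:65890237-65903266, plus strand) 256 ± 19.5 CPM. Cdk1 (chr10:69335146-69352938, minus strand) had 187 ± 14.8 CPM and Ccnb1 (chr13:100778650-100786570, minus strand) 84.7 ± 3.03 CPM. The genes differed in how readily 1 of them alone would place a cell outside the group: as deposited, a UMI was present in 81.2 to 83.5% of remaining cells for Top2a but in 44.03 to 45.4% for Ccnb1. The culture holds no cell type known to lack these genes, so the level of free RNA behind single UMIs was not tested.

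Just outside the rule lay 653 cells with exactly 1 rule-gene UMI, of Cdk1 in 229 cells, Top2a in 215, Mki67 in 90, Pclaf in 85 and Ccnb1 in 34. These cells were close to the marker-negative cells in most summed levels. The 48 late cell cycle genes outside the rule (cyclins, kinesins, kinetochore and spindle genes) took 1071 ± 38.3 UMIs per 1000000 in marker-negative cells, 1213 ± 96.1 with 1 rule-gene UMI and 9065 ± 168 with 12 or more (SD, n = 4 libraries). For the 34 replication licensing and fork genes, which load and fire DNA replication origins, the values were 1491 ± 113, 1799 ± 135 and 3053 ± 130. Lysosome and autophagy genes ran the other way, at 5720 ± 188, 5398 ± 199 and 4093 ± 67.8 in the same order. The steps were gradual for these lists and showed no break at 0 UMIs. Contractile and serum response genes differed: they stood at 5991 ± 374 in marker-negative cells and at means of 6655 to 6913 in the other bins. The libraries of these groups overlapped, from 5609 to 6459 at 0 UMIs and from 6256 to 7504 in the other bins, while within each library the bin at 0 UMIs was the lowest.

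**Figure D2:**
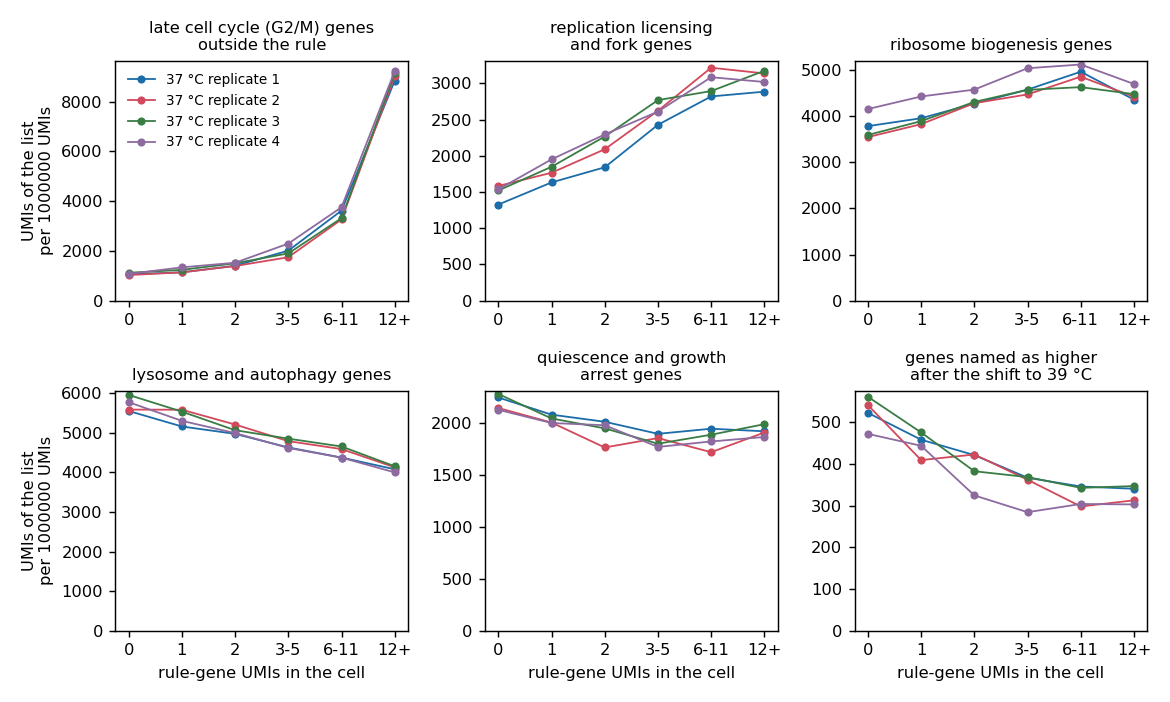
Summed UMIs of 6 gene lists per 1000000 UMIs (y) by the number of rule-gene UMIs in the cell (x), with 1 line per 37 °C library and axes that start at 0. Late cell cycle genes rose from 1071 at 0 UMIs to 9065 at 12 or more, and lysosome and autophagy genes fell from 5720 to 4093; the cells were binned by measured values, so the plot is a description.

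The place of these cells in the cycle was described with phase scores from which the rule genes were removed (42 S genes and 49 G2M genes remained). Of the 644 marker-negative cells, 490 were assigned to G1, 153 to S and 1 to G2M. By library, 74.1 to 78.4% were in G1 and 21.6 to 25.5% in S, against 14.7 to 20.2% and 41.9 to 46.1% of the remaining cells, of which 36.6 to 40.7% were in G2M. Marker-negative cells at 39 °C held 2.52 to 3.24% in S. G2M cells were nearly absent, but G2M genes are expressed together with the rule genes, so this follows at least in part from the choice. The label of non-cycling cells was met in part only, since 23.9% ± 1.86 (SD, n = 4) of the group carried an S-phase score. The cells of the group are therefore called marker-negative here. At 8000 UMIs a marker-negative cell held a library median of 8 to 9 UMIs of late cell cycle genes, against 26 to 30 in a remaining cell and 7 to 8 in a marker-negative cell at 39 °C. For licensing and fork genes the medians were 9 to 12, 20 to 22 and 5 to 7.

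Within the group, the cells assigned to S differed from those assigned to G1 in more than the replication genes that phase scores read. Replication licensing and fork genes, which the S score shares in part, stood at 2823 ± 214 UMIs per 1000000 in S and 1108 ± 77.1 in G1 (SD, n = 4). Ribosome biogenesis genes, which process ribosomal RNA and assemble ribosomes, were at 4595 ± 781 and 3544 ± 194, and heat shock chaperones at 12855 ± 945 and 11139 ± 492, higher in S in all 4 libraries. Lower in S in all 4 libraries were the p53 targets (5117 ± 335 against 6822 ± 227), the quiescence and growth arrest genes (1692 ± 186 against 2343 ± 56.9) and the immediate-early genes (1450 ± 68.5 against 1951 ± 144). CDK inhibitors, which block the cycle kinases, were likewise lower (2920 ± 238 against 3535 ± 111). Several lists share members, such as Cdkn1a in the p53 targets and CDK inhibitors, or Btg2 in the p53 targets and quiescence genes. Their sums are therefore not separate observations. The phases had like depth, with median UMIs of 11228 ± 1426 in S and 11642 ± 960 in G1. These are descriptions, since phase was itself assigned from the same cells' transcripts.

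**Figure D3:**
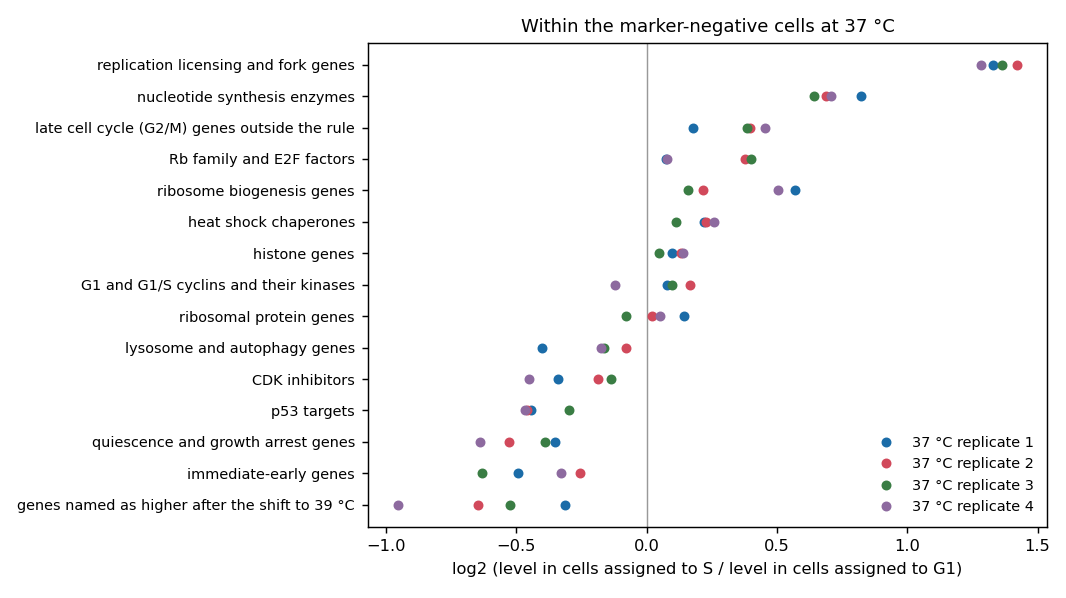
Log2 ratio of summed list levels in marker-negative cells assigned to S over those assigned to G1 (x) for 15 lists (y), with 1 point per 37 °C library. Replication and nucleotide genes lie right of 0 in every library, and p53 targets, CDK inhibitors, quiescence genes and the genes named as higher at 39 °C lie left of 0 in every library.

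Counts were then summed per library over marker-negative and over remaining cells and compared with edgeR's quasi-likelihood test with Benjamini-Hochberg adjustment, with the library as a block and the rule genes left out. At an adjusted p under 0.05, 4015 of 14612 genes were called (27.5%), 1689 higher (11.6%) and 2326 lower (15.9%) in marker-negative cells. The median log2 fold change over all genes was -0.01. Counts of list members below are to be read against the shares over all genes of the same comparison. With library totals in place of TMM factors the split became 2101 higher and 1912 lower. With the study's stricter limits (an adjusted p below 0.01 together with a change beyond 1.5 on the log2 scale), 255 genes passed (1.75%), 25 higher (0.171%) and 230 lower (1.57%). With only cells assigned to G1 on both sides, a choice made after seeing the data that takes S and G2M cells out of the comparison, 760 of 12652 genes were called (6.01%), 340 higher (2.69%) and 420 lower (3.32%), and 18 passed the stricter limits (0.142%), 6 higher (0.0474%) and 12 lower (0.0948%). Values said to be among G1 cells are from this comparison. The phase scores read part of the replication and late cell cycle lists, so values of those lists with G1 cells are descriptions. With all marker-negative cells kept and only the remaining cells limited to G1, 661 of 12735 were called (5.19%), 282 higher (2.21%) and 379 lower (2.98%). Of the 90 genes named at 37 °C that were called in the full comparison, 49 were called in the same direction with G1 cells on both sides, and 31 of these 49 also against remaining cells of G1 alone. edgeR estimated 1 shared spread for all genes here, so its adjusted p ignores a gene's own scatter, and limma-voom's adjusted p and the range over libraries are given beside it for leading genes. For each list given below with 0 calls in 1 direction against all remaining cells, or between temperatures, 0 members also passed an unadjusted p under 0.05 in that direction in edgeR and 0 were called by DESeq2 or limma-voom. The immune markers and, between temperatures, the endothelial and blood markers (1 of 3 higher at an unadjusted p under 0.05 and by limma-voom) were exceptions.

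The largest called rises, among genes with at least 50 CPM in the group where they were higher and 1 direction in 4 libraries, were led by Kdm5b, a histone H3 lysine 4 demethylase (chr1:134560171-134635285). Its CPM in marker-negative cells were 64.1, 67.2, 57.1 and 50.3 in replicates 1 to 4, against 28.0, 26.3, 21.9 and 25.3 in remaining cells. Every library was higher, and the groups did not overlap (log2 fold change 1.25 ± 0.08 (SE), adjusted p = 2.54e-47, limma-voom 5.71e-11). Among cells assigned to G1 on both sides it was still called, at 0.38 (adjusted p = 0.00156), but not against remaining cells of G1 alone (0.18, adjusted p = 0.283). Like all the leading rises except Igfbp2, it reached the limit of 50 CPM, as a mean over libraries, in marker-negative cells alone. The leading rises were picked by the size of this same change, so their values are descriptions and no independent evidence. Igfbp2, an IGF-binding protein (chr1:72824503-72852474), had 215, 361, 321 and 218 CPM against 140, 150, 135 and 116. Its rise was uneven, with log2 ratios of 0.62 to 1.26 over libraries (log2 fold change 1.03 ± 0.04, adjusted p = 5.80e-118, limma-voom 8.43e-11). With a robust prior in edgeR its adjusted p was only 1.69e-05. The rise was 0.23 among G1 cells (adjusted p = 0.000759) and 0.04 against remaining cells of G1 alone (adjusted p = 0.779).

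Other leading rises were Aldh3a1, an aldehyde dehydrogenase, Hopx, a small homeodomain protein that binds no DNA, and Prg4, the secreted proteoglycan lubricin. Aldh3a1 stood at 120, 83.9, 107 and 102 CPM in marker-negative cells and 44.4 to 52.4 in remaining cells (log2 fold change 1.08, adjusted p = 5.98e-58, limma-voom 1.90e-10). Aldh3a1 was still called among G1 cells, at a smaller 0.50 (adjusted p = 4.99e-09). So were Sema3c, a secreted guidance cue (1.08, and 0.50 among G1 cells), Tmem158 (1.10 and 0.38) and Pik3ip1, an inhibitor of PI3-kinase signalling (0.95 and 0.37). Against remaining cells of G1 alone Aldh3a1 (0.30, adjusted p = 0.00160) and Sema3c (0.33, adjusted p = 0.0141) were called, and Tmem158 (0.19, adjusted p = 0.187) and Pik3ip1 (0.22, adjusted p = 0.119) were not. Hopx rose from 47.7 ± 7.21 to 104 ± 23.8 CPM (SD, n = 4; log2 fold change 1.12, adjusted p = 3.21e-62, limma-voom 9.93e-11) and Prg4 from 30.8 ± 6.28 to 66.8 ± 19.8 (1.12, adjusted p = 3.35e-43, limma-voom 7.04e-10). Neither was called among G1 cells (Hopx 0.18, adjusted p = 0.138; Prg4 0.14, adjusted p = 0.416), and nor was Mettl7a1 (0.96 in the full comparison, 0.27 among G1 cells, adjusted p = 0.0614). The leading rises, including those still called, were all smaller among G1 cells than in the full comparison. Limiting the cells to G1 also takes out most remaining cells with many rule-gene UMIs. By mean over libraries, 64.1% of cells with 1 rule-gene UMI were in G1, against 0.272% of cells with 12 or more. The parts of phase and of rule-gene UMIs in the smaller rises were not tested.

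All 48 late cell cycle genes outside the rule were lower, with log2 fold changes of -5.97 to -0.41 and a median of -3.39. They are expressed together with the rule genes, so this follows from the choice and no test is given. Hmmr, a spindle protein, had 4.25, 2.78, 8.15 and 3.27 CPM in marker-negative cells and 167 to 185 in remaining cells. Cenpf, a kinetochore protein, had 9.74 to 19.9 against 389 to 419 CPM, and Birc5 (survivin) 8.35 to 12.2 against 240 to 280 CPM. The transcripts were low but present. Nusap1 and Kif11, both of the spindle, and Ccna2, the S and G2 cyclin, stood at 1.31 to 3.40, 1.70 to 2.78 and 2.55 to 3.27 CPM. Among cells assigned to G1 on both sides 22 of the 48 were called lower and the median was -0.82, with Hmmr at -2.42 and Cenpf at -1.68.

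Genes of DNA replication were lower throughout the comparison with all remaining cells. Like the rule genes they are transcribed in dividing cells, so these falls follow at least in part from the choice of cells. Their counts and p-values are descriptions and no independent evidence. The same holds for the nucleotide synthesis enzymes, histone genes, E cyclins and E2F factors below. Of the 34 licensing and fork genes, 34 were called lower (15.9% of all genes were), with a median log2 fold change of -1.0025. Cdc6, which loads the replicative helicase, had 1.27, 6.03, 2.72 and 3.92 CPM against 28.4 to 30.7 (log2 fold change -3.12, adjusted p = 1.31e-59, limma-voom 1.49e-08), and Mcm10, which activates that helicase, 4.53 to 6.96 against 35.3 to 44.8 (-2.85, adjusted p = 2.87e-70). Uhrf1, which carries DNA methylation through replication, and Cdc45, a helicase subunit, were both at -1.99. Against the remaining cells of G1 alone, 0 of the 34 were called lower in edgeR's test (0 at an unadjusted p under 0.05) and 5 were called higher, with a median of 0.12, where 2.98% of all genes were called lower and 2.21% higher. With G1 cells on both sides 13 of 34 were called lower and the median was -0.39. The direction for this list therefore turned with whether the marker-negative cells assigned to S were kept, and Pclaf, a rule gene, is itself an S-phase gene. The S score reads part of this list, so limiting only the remaining cells to G1 removes cells high in these same genes. The counts with G1 cells are thus partly set by the selection.

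Nucleotide synthesis enzymes went the same way, with 9 of 12 called lower, 0 higher and a median of -0.99. Tk1, thymidine kinase, had 12.3, 14.8, 14.9 and 15.03 CPM against 89.1, 97.0, 104 and 110 (log2 fold change -2.80, adjusted p = 2.23e-165, limma-voom 6.95e-13). Rrm2, the ribonucleotide reductase subunit, was at -2.27 and Tyms, thymidylate synthase, at -1.38. Among G1 cells on both sides 4 of 12 were called lower, Tk1 at -0.82 (adjusted p = 0.00178; -0.21 against remaining cells of G1 alone, adjusted p = 0.606), while Rrm2 was at -0.07 (adjusted p = 0.883). Of 18 histone genes 14 were called lower and 2 higher, with a median of -1.42 that became 0.03 among G1 cells. Histone families share near-identical sequences and their reads may be split between copies, so single members are uncertain: Hist1h2ap had 2.78 to 6.34 CPM against 46.4 to 110, and Hist1h1b 14.4 to 23.5 against 205 to 248. Hist1h2bc went the other way, with 62.8, 81.2, 99.7 and 84.3 CPM against 31.5 to 37.6 (1.24, and 0.73 among G1 cells, adjusted p = 1.15e-15).

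The cyclins and kinases that take a cell from G1 into S were in part lower. Ccne1 and Ccne2, the E cyclins that start S phase, fell most. Ccne1 had 2.55, 2.32, 4.08 and 2.61 CPM in marker-negative and 18.1, 22.3, 21.9 and 23.3 CPM in remaining cells (log2 fold change -2.86 ± 0.21, adjusted p = 6.42e-40, limma-voom 1.17e-08), and Ccne2 3.27 to 11.6 against 25.0 to 34.1 (-1.82, adjusted p = 7.16e-33). Smaller falls were called for Cdk2, the partner of the E cyclins (-0.68), and Cdk4, a partner of the D cyclins (-0.28). The D cyclins Ccnd2 (-0.22) and Ccnd3 (-0.23, adjusted p = 0.0258) were called but not stable: with remaining cells matched on UMIs Ccnd2 was at 0.08, and Ccnd3 was not called by limma-voom (adjusted p = 0.0671) or without replicate 2, 3 or 4 (adjusted p = 0.124, 0.160 and 0.0835). Ccnd1, the D cyclin that answers growth factors, stood at 528, 461, 490 and 567 CPM against 520, 477, 480 and 522 (0.03, adjusted p = 0.582), and Cdk6 was at -0.11 (adjusted p = 0.165). Of the 8, 6 were called lower and 0 higher. Among G1 cells on both sides 2 of 8 were called lower, Ccnd2 at -0.33 (adjusted p = 6.24e-05) and Cdk6 at -0.27 (adjusted p = 0.00831), while Ccne1 was at -0.28 with an adjusted p of 0.858.

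CDK inhibitors, the proteins that hold these kinases back, had 3 of 7 called higher, by small amounts, and 1 lower, Cdkn2d. Cdkn1a, the p53 target p21, stood at 1608, 1406, 1320 and 1424 CPM against 1342, 1127, 1213 and 1274. The groups overlapped in part, with a rise within every library (log2 fold change 0.22 ± 0.03, adjusted p = 9.93e-16, limma-voom 6.69e-07, and 0.15 among G1 cells, adjusted p = 0.00483), and it was at 0.02 and not called against remaining cells of G1 alone. Cdkn2a, whose locus makes p16 and p19ARF, had 1649, 1631, 1655 and 1619 against 1388, 1333, 1391 and 1332 CPM, with no overlap (0.27, adjusted p = 7.11e-25, limma-voom 2.26e-10). Its neighbour Cdkn2b, p15, had 151 to 172 against 127 to 135 (0.30, adjusted p = 5.01e-08). Neither was called among G1 cells (0.09 and 0.19, adjusted p = 0.144 and 0.0509). Cdkn2d, p19INK4d, fell from 50.4 ± 3.38 to 12.6 ± 2.41 CPM (-2.001, adjusted p = 1.34e-60) but was at -0.10 among G1 cells (adjusted p = 0.872). Cdkn1b (p27), the inhibitor best known from quiescent cells, had 57.7, 70.0, 63.4 and 47.0 CPM against 60.9, 58.1, 54.4 and 54.8 (0.07, adjusted p = 0.526). For Cdkn2c the values were 0.03 (adjusted p = 0.854) and, among G1 cells, 0.44 (adjusted p = 0.00785; 0.33 against remaining cells of G1 alone, adjusted p = 0.0673). Cdkn1c stood at 1.31 to 8.07 CPM, and its value of 0.36 (adjusted p = 0.449) became -0.71 without replicate 1.

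The Rb family and the E2F factors that it binds had 10 of 16 members called lower, 1 higher, and a median of -0.60. E2f8 (-2.44), E2f7 (-1.85) and E2f1 (-0.61), which are themselves transcribed around S phase, were lower with no overlap between groups. Rbl2, the p130 protein of the DREAM complex in resting cells, was the called rise, at 30.6 to 41.6 CPM against 26.0 to 29.0 (0.37, adjusted p = 0.000931, limma-voom 0.00493), and was not called with cells thinned to 8000 UMIs (0.25, adjusted p = 0.129). Its relative Rbl1 (p107) was at -0.59 (adjusted p = 1.97e-05) and Rb1 at 0.10 (adjusted p = 0.363). Among G1 cells edgeR called 0 of the 16 (3 higher and 3 lower at an unadjusted p under 0.05), with Rbl2 at 0.33 (adjusted p = 0.0818).

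Quiescence and growth arrest genes were called higher for 8 of 20 and lower for 2 (11.6% and 15.9% of all genes), with a median of 0.16. Txnip, which binds thioredoxin and limits glucose uptake, had 80.2, 102, 104 and 73.2 CPM against 60.3, 70.1, 60.1 and 55.2 (0.55, adjusted p = 1.79e-15, limma-voom 1.79e-06) and was at 0.59 among G1 cells (adjusted p = 5.71e-10). Btg2, an antiproliferative p53 target, had 225 to 306 against 164 to 227 CPM (0.43, and 0.37 among G1 cells, adjusted p = 1.52e-09). Foxo1, a transcription factor held in check by growth factor signalling, was at 0.43 and Klf9 at 0.45, neither called among G1 cells (adjusted p = 0.473 and 0.295). In all, 3 of 20 were called higher among G1 cells.

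Of 26 p53 targets 10 were called higher and 0 lower (11.6% and 15.9% of all genes), with a median of 0.16. Among G1 cells 6 of 26 were higher and 0 lower in edgeR's test (2.69% and 3.32% of all genes). Perp, a cell adhesion and death effector, stood at 568, 541, 583 and 547 CPM against 448, 419, 437 and 414 (0.38 ± 0.03, adjusted p = 2.65e-28, limma-voom 8.39e-10). Its rise was nearly equal in every library, with log2 ratios of 0.34 to 0.42, and was 0.25 among G1 cells (adjusted p = 4.46e-06). Trp53inp1 (0.36) and the death receptor Fas (0.34) were also higher. Trp53inp1 was called among G1 cells but not against remaining cells of G1 alone. In the list of apoptosis and cell stress genes, which shares Fas and other members with the p53 targets, 5 of 12 were called higher and 1 lower. Among the rises were Bcl2l11 (BIM, 0.59) and Ddit3 (CHOP, 0.57, and 0.38 among G1 cells, adjusted p = 0.00194, but 0.25 against remaining cells of G1 alone, adjusted p = 0.0862). Of the 12 apoptosis and cell stress genes edgeR called 1 higher and 0 lower among G1 cells (4 and 1 at an unadjusted p under 0.05). It called 0 against remaining cells of G1 alone (2 higher and 0 lower at an unadjusted p under 0.05). Immediate-early genes had 8 of 16 higher and 2 lower (11.6% and 15.9% of all genes). Ier3 had 99.8, 91.4, 165 and 108 CPM against 60.0 to 71.3 (0.84, adjusted p = 1.10e-40, limma-voom 2.81e-08), and Junb 222 to 233 against 158 to 181 (0.42, adjusted p = 6.96e-19). Among G1 cells 3 of the 16 were called higher and 1 lower, with a median of 0.08. Against remaining cells of G1 alone edgeR called 1 higher and 0 lower (4 and 1 at an unadjusted p under 0.05), with a median of 0.07, and Junb was not called.

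Of the 27 lists, lysosome and autophagy genes had the largest share of called rises, 17 of 21 higher and 0 lower (background 11.6% and 15.9%), with a median of 0.31. Ctsl, the protease cathepsin L, had 212, 229, 213 and 197 CPM against 137, 162, 135 and 123 (0.61 ± 0.05, adjusted p = 1.79e-37, limma-voom 3.84e-10). Lamp2, a protein of the lysosomal membrane, had 220, 259, 256 and 239 CPM against 177, 175, 171 and 157 (0.51, adjusted p = 5.03e-29). Hexa, a hexosaminidase, was at 0.52 and Ctsa, cathepsin A, at 0.48. All 4 had no overlap between groups and remained called among G1 cells, where 10 of 21 were higher, 0 lower and the median was 0.14. Against remaining cells of G1 alone 6 of 21 were higher and 0 lower, and Hexa was not called (0.17, adjusted p = 0.0993).

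Ribosome biogenesis genes went the other way, with 14 of 20 called lower, 0 higher and a median of -0.31. Nolc1, a nucleolar chaperone, had 81.5, 85.3, 72.5 and 96.7 CPM against 126, 127, 129 and 143 (-0.65, adjusted p = 1.86e-25), and the snoRNP proteins Nop58 and Nop56 were at -0.62 and -0.56. Among G1 cells 5 of 20 were called lower, including these 3, but 0 of 20 in edgeR's test against remaining cells of G1 alone (0 higher and 3 lower at an unadjusted p under 0.05). Of 40 ribosomal protein genes 19 were lower and 4 higher, with a median of -0.05. Heat shock chaperones had 8 of 17 lower and 4 higher (15.9% and 11.6% of all genes). Hsp90aa1, a cytosolic chaperone, fell from 1204 ± 71.4 to 857 ± 46.5 CPM (-0.49, adjusted p = 2.57e-66, limma-voom 3.61e-13), and Hspd1, the mitochondrial chaperonin, was at -0.56.

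In the ATF4 list, which covers amino acid synthesis and the stress response it drives, 10 of 22 were lower and 4 higher. Among its largest falls, Phgdh, the first enzyme of serine synthesis, had 130, 128, 145 and 171 CPM against 227, 258, 258 and 322 (-0.89 ± 0.05, adjusted p = 4.27e-75, limma-voom 7.40e-12), Psat1, the next enzyme, was at -1.01 and Mthfd2, a mitochondrial folate enzyme, at -1.42. Asns, asparagine synthetase, was at -0.62. The first 3 were also called lower among G1 cells, at -0.46, -0.39 and -0.80 (adjusted p = 8.93e-10, 0.00134 and 5.60e-06), and Psat1 was not called against remaining cells of G1 alone (-0.25, adjusted p = 0.0549). Cholesterol synthesis genes had 10 of 23 lower and 1 higher, with Idi1 at -0.66 and Fdps at -0.53, but edgeR called 0 of the 23 among G1 cells (0 higher and 3 lower at an unadjusted p under 0.05; Idi1 0.01, Fdps -0.08).

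Contractile and serum response genes were lower in 11 of 19 and higher in 2, and in 12 of 18 and 1 among G1 cells. Tagln2, an actin-binding protein, had 220, 257, 262 and 303 CPM against 420, 452, 432 and 491 (-0.79, adjusted p = 1.03e-88, limma-voom 1.91e-12, and -0.35 among G1 cells). Ankrd1, a target of YAP and SRF, had 90.01, 86.3, 92.0 and 131 CPM against 135 to 167 (-0.64), and Tpm4, a tropomyosin, was at -0.48. Acta2, smooth muscle actin, stood at 157 to 322 CPM against 199 to 275 with overlapping groups (-0.08, adjusted p = 0.170) but was called lower among G1 cells, at -0.54 (adjusted p = 7.46e-21). Collagen and matrix genes had 6 of 25 higher and 4 lower against all remaining cells, where 11.6% and 15.9% of all genes were, so the falls were near that share. Among G1 cells 0 were higher (1 at an unadjusted p under 0.05 in edgeR) and 9 of 24 lower (2.69% and 3.32% of all genes). Timp3, an inhibitor of matrix proteases, turned from 0.39 to -0.20 between these comparisons (adjusted p = 4.95e-47 and 1.26e-05), and Timp1 was lower in both, at -0.52 and -0.28.

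Neural progenitor genes were called higher in 7 of 11 and lower in 1. Nes, the intermediate filament nestin, was the fall, at 313, 286, 242 and 410 CPM against 508, 475, 455 and 615 (-0.73 ± 0.04, adjusted p = 2.46e-83, limma-voom 9.85e-12). It was lower in every library with no overlap, and at -0.60 among G1 cells (adjusted p = 1.95e-29). Id3, an inhibitor of neurogenic transcription factors, had 515, 550, 523 and 410 CPM against 342 to 383 (0.45, adjusted p = 1.11e-36), and the receptor Notch1 230 to 304 against 190 to 235 (0.39, adjusted p = 7.44e-19), both still called among G1 cells, while Notch1 was not against remaining cells of G1 alone (0.10, adjusted p = 0.273). Of 11 tested pan-neuronal genes 0 were called higher and 2 lower, where 11.6% and 15.9% of all genes were, so the falls were near that share. The falls were Ncam1 (-0.47), a neural cell adhesion molecule, and Tubb3 (-1.75), the neuronal tubulin, which stood at 4.25 to 5.88 CPM against 15.2 to 20.4. Tubb3 was at -0.30 among G1 cells (adjusted p = 0.722).

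Markers of other cell types were in part not detected in the marker-negative cells, while other members of the same lists were detected at summed levels near those of the remaining cells. Of 13 dopaminergic markers, 6 had any UMI, Th, Slc6a3 and Ddc were at 0, and the summed level was 30.04 to 35.01 CPM against 26.7 to 29.8 in remaining cells. Of the 5 tested, 1 was called higher, En1, a midbrain homeobox gene (12.4 ± 2.07 against 9.30 ± 0.53 CPM, 0.42, adjusted p = 0.039), named here after its value was seen. DESeq2 and both comparisons with G1 cells called 0 of the 5 higher (1 at an unadjusted p under 0.05 in each). Foxa2, a midbrain floor plate factor, had 14.4 to 15.7 CPM against 13.1 to 14.4 (0.10, adjusted p = 0.676). Pan-neuronal genes summed to 227 to 322 CPM, with 10 of 17 detected and Dcx, Rbfox3 and Snap25 at 0, against 307 to 358. Glial markers summed to 54.0 to 77.0 CPM against 58.1 to 64.3, with Gfap, Olig2 and Sox10 at 0. Of 10 tested, 1 was called higher and 2 lower, near the shares of all genes (11.6% and 15.9%). Immune markers summed to 19.0 to 29.4 CPM against 18.7 to 23.7, with 4 of 9 detected and Ptprc and Aif1 at 0, and endothelial and blood markers gave 16 UMIs in all, with 0 called by edgeR of 6 and of 3 tested. Among the immune markers 1 was higher and 1 lower at an unadjusted p under 0.05, and limma-voom called 1 higher. Of the genes named at 0 here, Dcx, Snap25, Gfap, Olig2 and Sox10 were at 0 in the remaining cells too. The others were detected there, in sums of 22048102 to 25146998 UMIs per library against 1500286 to 2363178 in marker-negative cells. The part of this difference in depth in the zeros was not tested. The part of these markers in the other differences was not tested either.

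The share of mitochondrial UMIs was slightly higher in marker-negative cells, with library medians of 7.67%, 7.97%, 8.25% and 7.57% against 7.35%, 7.48%, 7.75% and 7.35%. The difference of 0.384 ± 0.136 percentage points (SD, n = 4) had the same sign in 4 of 4 libraries (two-sided exact paired permutation test, p = 0.125, the smallest that 16 sign changes can give). It was 0.174 points in cells with at least 12000 UMIs and 0.161 points against remaining cells of G1 alone. Of 13 mitochondrially encoded genes 4 were called higher, with mt-Co1, a subunit of cytochrome oxidase, at 0.16, and 3 lower, with mt-Nd1, a subunit of complex I, at -0.21. The part of mitochondrial share in the other differences was not tested.

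How marker-negative cells at 37 °C relate to the shifted culture was described first with 14 genes named as higher after the move to 39 °C. These were chosen on the same libraries, so their direction is not independent evidence. At 37 °C 9 of 14 were called higher in marker-negative than in remaining cells and 0 lower, with a median of 0.60, and 6 of 14 among G1 cells with a median of 0.40. Enpp2, the enzyme autotaxin, had 20.8, 34.3, 19.5 and 20.9 CPM against 7.12, 7.22, 5.69 and 3.65 (1.98 ± 0.14, adjusted p = 7.05e-42, limma-voom 3.84e-10, and 0.64 among G1 cells, but 0.33 against remaining cells of G1 alone, adjusted p = 0.166). Ckmt1, a mitochondrial creatine kinase, had 20.9 to 36.7 against 11.4 to 16.8 CPM (0.96, and 0.87 among G1 cells, adjusted p = 3.96e-08). Celf5, an RNA-binding protein, was at 0.50 and Cdh13, a cadherin without a cytoplasmic tail, at 0.51, both called among G1 cells as well. Irx3 (0.70) and Hmga2 (0.48), a homeobox and a chromatin protein, were not (0.20 and 0.14, adjusted p = 0.114 and 0.441). Il33, an alarmin cytokine, was at 1.39 with 7.84 to 16.8 CPM and at 0.01 among G1 cells.

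**Figure D4:**
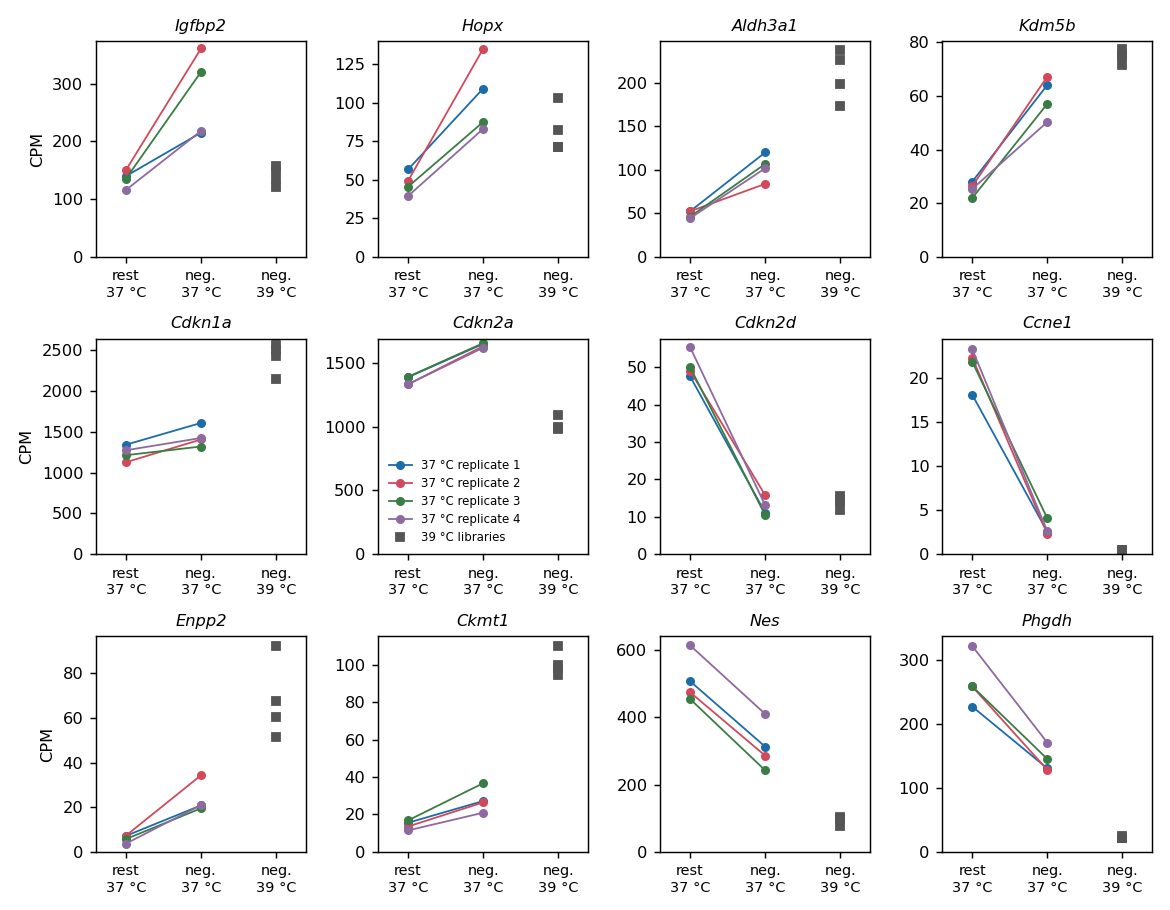
CPM (y, each axis from 0) of 12 genes in remaining and marker-negative cells of each 37 °C library (joined points) and in marker-negative cells of the 39 °C libraries (squares). Kdm5b and Enpp2 step up from remaining to marker-negative cells and again at 39 °C, Nes and Phgdh step down, and Igfbp2 and Cdkn2a are highest in marker-negative cells at 37 °C.

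Marker-negative cells of the 4 libraries at 39 °C and the 4 at 37 °C were then compared directly, with the same test and no block. This comparison shares the 37 °C marker-negative sums with the one above, so the 2 sets of values are given side by side and not correlated. Of the marker-negative cells, 21.6 to 25.5% were assigned to S at 37 °C and 2.52 to 3.24% at 39 °C. Phase mix and temperature thus differ together in this comparison. Of 13589 genes 4893 were called (36.0%), 2605 higher (19.2%) and 2288 lower (16.8%) at 39 °C, and 250 passed the stricter limits (1.84%), of which 86 were higher (0.633%) and 164 lower (1.21%). The balance turned with RLE factors (2340 higher and 2489 lower), library totals (2350 and 2480), DESeq2 (2038 and 2297) and limma-voom (2375 and 2405). The groups did not overlap for 4755 genes (35.0%).

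Among the 14 genes named as higher at 39 °C, 12 were called higher and 0 lower, with a median of 1.42. These genes were chosen on the same libraries for being higher at 39 °C. Their counts, fold changes and p-values here are therefore descriptions and no independent evidence. Enpp2 rose from 24.0 ± 7.02 CPM in marker-negative cells at 37 °C to 67.9 ± 17.6 at 39 °C (1.49, adjusted p = 2.34e-07), Ckmt1 from 27.9 ± 6.48 to 101 ± 6.69 (1.83, adjusted p = 1.42e-12) and Hmga2 from 73.9 ± 9.40 to 226 ± 2.65 (1.62, adjusted p = 4.95e-14). For Celf5 (1.51), Irx3 (1.27) and Cdh13 (1.11) the 37 °C cells were likewise below every 39 °C library. CPM here differ slightly from those above because the scaling factors were set over other sums.

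Several genes that were high in marker-negative cells at 37 °C were lower at 39 °C. Igfbp2 fell from 280 ± 73.4 to 141 ± 16.03 CPM (-0.999, adjusted p = 1.50e-07), a level near the 135 ± 14.5 CPM of the remaining cells at 37 °C. Prg4 fell from 67.2 ± 19.97 to 30.9 ± 5.98 (-1.13, adjusted p = 1.09e-06), Tmem158 from 77.1 ± 12.9 to 49.2 ± 1.71 (-0.66) and Ctsa from 151 ± 14.0 to 94.3 ± 15.5 (-0.69). Cdkn2a fell from 1647 ± 12.03 to 1016 ± 49.9 CPM (-0.70, adjusted p = 8.92e-09), below the remaining cells at 37 °C. Hopx overlapped between temperatures (-0.35, adjusted p = 0.0256) and was not called without 37 °C replicate 1 or 2 or 39 °C replicate 4 (-0.33, -0.19 and -0.29). Others went further up: Aldh3a1 (104 ± 15.1 to 209 ± 28.9 CPM, 1.01), Sema3c (54.3 ± 12.2 to 108 ± 4.11, 0.97), Hist1h2bc (82.4 ± 15.03 to 230 ± 18.6, 1.49) and Kdm5b (60.0 ± 7.53 to 74.9 ± 2.53, 0.31).

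CDK inhibitors had 2 of 7 called higher at 39 °C and 1 lower, shares near those of all genes. Cdkn1a rose from 1447 ± 124 to 2411 ± 184 CPM (0.74, adjusted p = 4.11e-08) and Cdkn2c from 35.2 ± 7.57 to 81.6 ± 1.66 (1.19, adjusted p = 7.58e-10), while Cdkn2a was the fall, at -0.70. Cdkn1b (0.14), Cdkn2b (-0.08), Cdkn2d (0.17) and Cdkn1c (-1.06, adjusted p = 0.0558) were not called. Of 26 p53 targets 22 were higher and 0 lower (19.2% and 16.8% of all genes), with Btg2 at 0.99 and Perp at 0.74. Of 20 quiescence genes, a list that shares Btg2 and other members with the p53 targets, 13 were higher and 2 lower. Ccne1, already at 2.90 ± 0.796 CPM, was at 0.387 ± 0.136 CPM (-2.88, adjusted p = 2.49e-05). Replication licensing and fork genes had 0 higher and 32 of 34 lower, with a median of -0.79. Late cell cycle genes, held down by the rule at both temperatures, had 5 higher and 20 lower of 48, with a median of -0.30. With only cells assigned to G1 at both temperatures, edgeR called 21 of the 34 licensing genes lower and 0 higher at an adjusted p under 0.05 (median -0.44). For the 48 late cell cycle genes it called 12 lower and 5 higher (median -0.17).

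Genes called here were ranked among those with at least 50 CPM in the group where they were higher and no overlap between groups. Larger changes of scarcer genes, such as Col3a1, a fibrillar collagen (16.2 to 1.24 CPM, -3.67), are left out by this limit. The largest rises were Trp53i11, a p53-inducible membrane protein (42.7 ± 3.04 to 159 ± 8.75 CPM, 1.89), Ckmt1, Tnfrsf23, a decoy receptor for TRAIL (23.0 ± 2.62 to 79.5 ± 1.37, 1.78), the Notch ligand Jag2 (1.72), the adhesion protein Nectin4 (1.71) and the autophagy gene Atg9b (1.66). The largest falls under the same limit were led by Acta2, which went from 240, 210, 157 and 325 CPM to 15.9, 20.3, 22.8 and 35.1 (-3.30 ± 0.17, adjusted p = 1.88e-13), and Tagln, a further smooth muscle actin-binding protein, from 90.4 ± 15.9 to 9.74 ± 4.55 (-3.18, adjusted p = 2.08e-12). Phgdh fell from 144 ± 20 to 22.0 ± 1.61 CPM (-2.70, adjusted p = 4.02e-17), Psat1 from 59.5 ± 7.41 to 10.97 ± 0.629 (-2.42), and Sprr1a and the keratin Krt19 were both at -2.36. Nes fell from 315 ± 72.7 to 93.5 ± 11.5 (-1.74, adjusted p = 5.29e-12). Contractile genes had 16 of 18 lower and 0 higher with a median of -0.91, and collagen and matrix genes 15 of 25 lower and 3 higher with a median of -0.64.

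**Figure D5:**
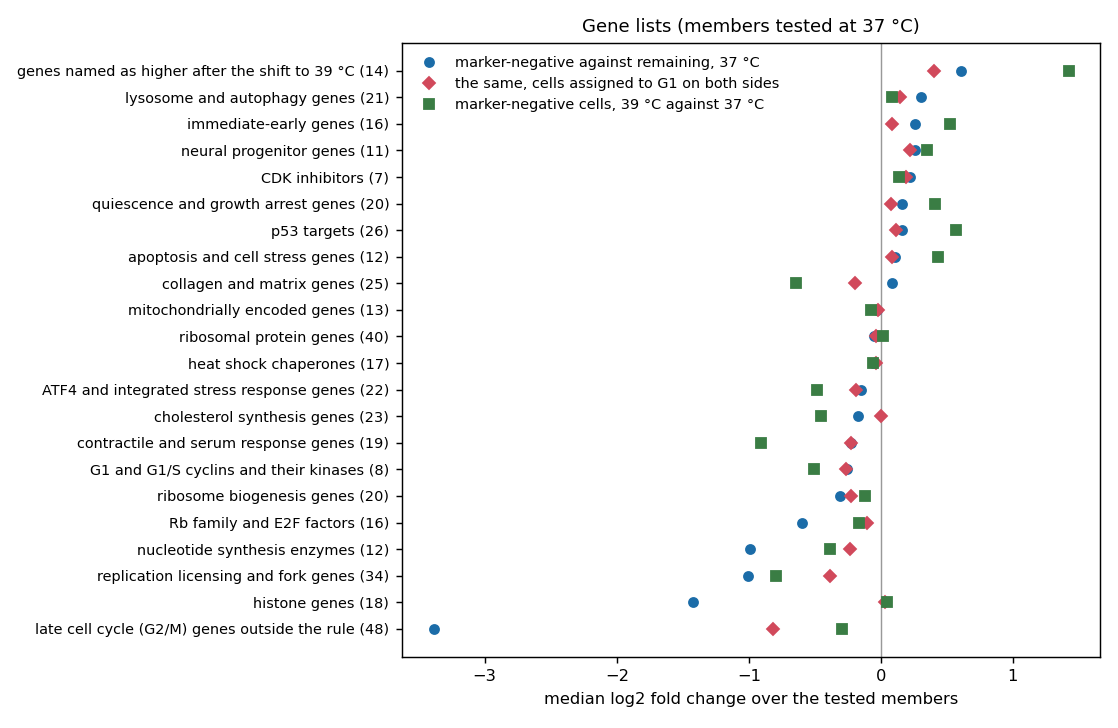
Median log2 fold change over the tested members (x) of 22 gene lists (y, with the number tested at 37 °C), for marker-negative against remaining cells (circles), the same within G1 (diamonds) and marker-negative cells at 39 °C against 37 °C (squares). Late cell cycle genes lie at -3.39, -0.82 and -0.30, lysosome genes at 0.31, 0.14 and 0.09, and p53 targets at 0.16, 0.11 and 0.57.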

How the data were processed

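The SN4741 line was profiled by droplet single-cell RNA-seq (Chromium 3' V3) in 8 libraries. The authors aligned reads to mm10 with Cell Ranger 3.0.1, per the submitters' processing notes, and deposited whole-number UMI counts for 31053 genes per cell, with no normalization. Groups and replicate numbers came from the sample titles. Gene positions came from GENCODE M21 on GRCm38 (30934 genes matched by identifier) and promoters from RefSeq.

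Cells were filtered at 15% mitochondrial UMIs, 200 to 6000 genes and 8000 UMIs. No doublet caller was run, and the upper limit on genes was the only step against doublets. Phases were scored with Seurat 5.3.0. Raw counts were summed per library and cell group, and genes averaging 1 count or more per sum were tested with edgeR 4.0.16 (R 4.3.3; TMM factors, glmQLFit, glmQLFTest, Benjamini-Hochberg). Marker-negative and remaining sums of 1 library deviated together (r = 0.297 to 0.414 over genes), and the library was the block. edgeR's prior degrees of freedom were infinite in that fit. limma 3.58.1 (voom) and a robust prior were added after seeing the data, as was the comparison of G1 cells on both sides. DESeq2 1.42.0, other scalings and filters, depth-matched cells and left-out libraries were the other alternatives. In simulated counts for the 37 °C comparison (14430 genes), 79 of 100 genes changed by 0.6 and 99 of 100 changed by 1.5 on the log2 scale were recovered, with 11 false calls. For 39 °C against 37 °C (13420 genes) these were 68, 100 and 7. Both sets of counts used 1 dispersion for all genes, 0.000807 for the 37 °C comparison and 0.00477 between temperatures. The number of false calls where genes differ in spread was not tested.

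CPM are per 1000000 counts of tested genes with TMM-scaled totals. Levels of the rule genes and summed levels of lists are per 1000000 UMIs. SE is the fold change over the square root of F. Named genes were the rule genes, the 10 largest rises and falls at 50 CPM or more with 1 direction in 4 libraries, all cyclins, CDK inhibitors and Rb and E2F genes, up to 4 called members of each other list at 10 CPM or more, the 6 largest rises and falls between temperatures, and genes the study names. The text gives part of these, while values across temperatures for genes named at 37 °C were picked after seeing them. The members and the 27 lists were chosen with earlier results of these data known.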

Additional observations from a re-analysis of the deposited data

Results flagged for a closer look

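In 13 of 232 groups of 4 libraries (5.6%, where chance gives about 5%), 1 library of the genes named stood apart from the other 3 by a Dixon gap test. In marker-negative cells at 37 °C these were the lowest library for Tk1 (12.3 CPM) and the highest for Ccnd2 (134), Ccne1 (4.08), Cdkn1c (8.07), Ankrd1 (131), Hsp90aa1 (927) and Enpp2 (34.3). Ccnd2, Ankrd1 and Hsp90aa1 were highest in replicate 4, the library with the fewest marker-negative cells. Enpp2 was highest in replicate 2 and Cdkn1c in replicate 1. In remaining cells at 37 °C they were Rrm2 (102 CPM) and Tyms (137), both lowest in replicate 1, and Trp53inp1 (126) and Nop58 (189). In marker-negative cells at 39 °C they were Phgdh (24.4 CPM) and Atg9b (99.5).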

How the results depend on the processing

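Of the genes called between marker-negative and remaining cells at 37 °C, 4015 in the comparison reported, DESeq2 called 2565, and with remaining cells of G1 alone or G1 cells on both sides 661 and 760 were called. At the stricter limits 255 became 563 with limma-voom, 12 and 18. The lists with over 50% of their tested members called, 17, became 10 with no replicate block, and 2 and 2 in the comparisons with G1 cells. Leaving out 1 library gave 3232 to 3549 called genes, 243 to 254 at the stricter limits and 14 to 16 lists. For marker-negative cells at 39 °C against 37 °C, 4893 called genes became 4167 to 4994 without 1 library, 250 at the stricter limits became 217 to 262, and 16 lists became 14 to 17. The mean share of 10.0% became 15.9% after thinning, 6.46% with at least 12000 UMIs per cell and 9.55 to 10.8% without 1 library, and the mitochondrial difference was 0.344 to 0.438 points without 1 library and 0.161 to 0.437 under the other alternatives.

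Of 1940 pairs of a named gene and an alternative at 37 °C, 1804 kept direction and call, 99 kept direction but lost the call, 5 gained one and 32 turned. Between temperatures 708 of 714 kept both and 6 lost the call. Against remaining cells of G1 alone the following turned, where G1 cells replace S and G2M cells: the medians of licensing (0.12), nucleotide (0.054), Rb and E2F (0.067), histone (0.022), heat shock (0.019) and mitochondrial genes (0.00442), and Prg4 (-0.13), Cdc6 (0.19), Uhrf1 (0.45), Cdc45 (0.049), Rrm2 (0.026), Tyms (0.28), Ccnd1 (-0.046), Ccne1 (0.11), Ccne2 (0.40), Cdk4 (0.071), E2f1 (0.097), E2f8 (0.54), Timp3 (-0.30), Idi1 (0.049) and Il33 (-0.25). With G1 cells on both sides the histone median (0.028), Ccnd1 (-0.014), Timp3 (-0.20) and Idi1 (0.00677) turned. With remaining cells matched on UMIs, Ccnd2 (0.081), Cdk6 (0.11) and the medians of ATF4 (0.045), ribosomal (0.028) and mitochondrial genes (0.00425) turned, the last also with library totals (0.020). Thinning turned Cdk6 (0.041) and Cdkn1b (-0.058). Genes near 0 or scarce also turned: Cdkn1c with at least 12000 UMIs (-0.65) and a mitochondrial limit of 10% (-0.14), and Cdkn2c under the same changes (-0.070 and -0.00802) and against cells with at least 3 rule-gene UMIs (-0.034). Without 1 library the values ran from -0.71 (replicate 1) to 0.65 for Cdkn1c, from -0.046 (replicate 3) to 0.12 for Cdkn2c, which was also at -0.044 without replicate 1, from -0.000715 (replicate 2) to 0.12 for Cdkn1b and from -0.012 (replicate 4) to 0.055 for Ccnd1. For these the cause was not tested.

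Marker-negative and remaining sums come from 1 library, so the replicate block is part of that comparison. Libraries of the same number at the 2 temperatures did not deviate together (r = -0.143, -0.0462, -0.0979 and 0.184), and the fit with a replicate block called 4818 genes against 4893. Marker-negative sums were smaller than those of the remaining cells (from 1500286 UMIs), which limits what can be read from genes under a few CPM.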

Other observations

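Read from the side of phase, marker-negative cells were a minority of the G1-assigned cells at 37 °C, at 33.6%, 34.2%, 32.7% and 30.6% in replicates 1 to 4, and the majority at 39 °C, at 58.8% to 69.8%. Most G1-assigned cells at 37 °C therefore held a rule-gene UMI in every library. Replicate 4, lowest in the overall share, was lowest here too.

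The promoter motifs counted for the rule genes were also counted in 4 lists. Of the 40 late cell cycle genes with a promoter, 32.5% held a CHR and 72.5% a CCAAT box, with both in 12. For 27 replication licensing and fork genes the shares were 7.41% and 63.0%, and 18.5% held an E2F form, against 2.12% of the promoters of tested genes. Lysosome and autophagy genes, of which 17 had a promoter, held a CHR in 0 and a CCAAT box in 29.4%, and p53 targets, of which 18 had one, 11.1% and 55.6%. Promoters of all 10774 tested genes held a CHR in 7.62% and a CCAAT box in 32.8%. These are counts of letters with no test.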
